A study of Saccharomyces cerevisiae with 10 samples.

Results

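Aminoacyl-tRNA synthetase mRNAs are described here in budding yeast (Saccharomyces cerevisiae) in which transcription had been shut off. The rule that chose them uses gene identity and no measured value: 35 of the 6717 yeast genes in the deposited table encode these enzymes, 21 of them cytosolic or dual synthetases and 14 mitochondrial synthetases. The strain, rpb1-1/caf1Δ, carries rpb1-1, a temperature-sensitive allele of the largest subunit of RNA polymerase II, and lacks CAF1 (also called POP2), which encodes a poly(A) nuclease of the Ccr4-Not complex. A growing culture was moved from 24 °C to 37 °C. RNA was taken once before the shift (0 min), then at 3, 6 and 8 min, at 10 and 15 min, at 20 and 30 min, and at 45 and 60 min, which makes 10 libraries. Every library shares the 2 alleles and the same culture conditions, so nothing here separates the deletion from the polymerase allele, and heat shock is part of the shift in every later sample. The rpb1-1 libraries with intact CAF1 were not analysed here.

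Each synthetase joins 1 amino acid to the tRNAs that carry it to the ribosome. Yeast makes proteins in the cytosol and, for a few subunits of the respiratory chain, inside mitochondria, and nuclear genes supply synthetases to both places. For many amino acids the cell has separate cytosolic and mitochondrial enzymes, while ALA1, GRS1, HTS1, VAS1 and CRS1 each serve both compartments from a single gene. Mitochondria have no glutaminyl-tRNA synthetase of their own: glutamate is first put on that tRNA and then amidated. The RNA-binding protein Puf3 is known in yeast to bind a short sequence in the 3′ untranslated regions of many nuclear mRNAs for mitochondrial proteins and to recruit Ccr4-Not.

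The core sequence bound by Puf3, TGTANATA read on the sense strand, was sought in the 100 bases after each stop codon. The motif was present in 14 of 14 mitochondrial synthetase genes and 3 of 21 cytosolic or dual genes, against 609 of 5994 nuclear protein-coding genes (10.2%). The windows below, of 30 bases, are shown because their mRNAs mark the extremes described later: DIA4 and MSM1 with the lowest levels at 15 min, MSF1 and AIM10 with the highest levels among the mitochondrial group, MSW1 with the lowest level at 60 min, and GUS1 as a cytosolic mRNA with a match. Capitals mark TGTANATA. Sequences are from the RefSeq genome of R64 on the strand of each gene, whose coordinates follow.
DIA4, chrVIII:129125-129154, plus strand: taagaaaatctTGTAAATAtgtaatcttat
MSM1, chrVII:840787-840816, minus strand: acttactgcacTGTAAATAttaacttaagt
MSW1, chrIV:1005165-1005194, plus strand: tgcaaacgcaaTGTAAATAataatacagtt
MSF1, first match, chrXVI:658968-658997, plus strand: tttaccgcagcTGTATATAtcttgtaaata
MSF1, second match, chrXVI:658979-659008, plus strand: tgtatatatctTGTAAATActttgtcaggt
AIM10, chrV:332328-332357, plus strand: tcttgtatacaTGTATATAacaccaaaata
GUS1, chrVII:41154-41183, plus strand: cacataagtaaTGTATATAcatatttatgt

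The 14 mitochondrial genes held 16 matches, since MSF1 and MSK1 have 2 each, and the matches began 16 to 92 bases after the stop codon. Of these, 13 read TGTAAATA and 3 read TGTATATA. All 3 cytosolic or dual matches, in GLN4, GUS1 and CRS1, read TGTATATA. On the opposite strand of the same windows the motif occurred in 0 of 14 mitochondrial and 6 of 21 cytosolic or dual genes, against 8.63% of all genes. A C at the position 2 bases before the core stood in 11 of 14 mitochondrial genes, as in the windows of DIA4 and AIM10, and in 0 of 21 cytosolic or dual genes, against 3.4% of all genes. The ends of the untranslated regions are not annotated in the reference used here, and 1 of the 35 windows, that of MSY1, reaches 2 bases into a neighbouring gene. A match is a description of the sequence, and no binding was measured.

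Levels are FPKM, fragment counts normalised for the length of a transcript and the size of its library, divided by the summed FPKM of the ERCC spike-in RNAs in the library relative to 0 min. There was 1 library per time point, so no level at a single time has a replicate error. The steps between low FPKM values give 2.29 (15 min) to 4.98 (45 min) × 1e6 fragments per library. The libraries of 8 and 30 min were low and those of 10 and 45 min were high for most genes at once, in both synthetase groups and in the median of all genes. The size of the swings differed. From 30 to 45 min the median rose from 49.2% to 59.4% of 0 min in the cytosolic or dual group. It rose from 39.9% to 45.9% over all genes and only from 39.7% to 39.96% in the mitochondrial group. The part of the spike-in factors in these shared swings was not tested. CAF1, listed as POP2 (YNR052C), had 0.887 FPKM before the shift, against 56.9 FPKM for CCR4 (YAL021C), which encodes the partner nuclease. The strain list of the study gives HIS3 (YOR202W) as the marker put in place of CAF1, yet HIS3 is listed at 0 in each library. The reason for this mismatch was not tested. The libraries were made with total RNA and mRNA kits, and which kit served these samples is not given in the sources used here. Where poly(A) RNA was selected, loss of an mRNA and loss of its tail cannot be told apart.

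At 0 min the 21 cytosolic or dual mRNAs stood between 75.1 FPKM (WRS1) and 424 FPKM (ILS1), with a median of 156 FPKM. The 14 mitochondrial mRNAs stood between 15.9 FPKM (ISM1) and 51.6 FPKM (MSY1), with a median of 26.0 FPKM, so the ranges did not overlap on this scale, which is per length. The median of all genes, taken over the 5991 with a mean of at least 1 FPKM and a level above 0 at 0 min, was 38.0 FPKM. The plot of each mRNA at 0, 15 and 60 min shows the gap between the groups. At the thinnest point WRS1, at 30 min, rested on an estimated 83.9 fragments and DIA4, at 15 min, on an estimated 16.0 fragments, so single values of the mitochondrial mRNAs carry more counting error.

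**Figure D1:**
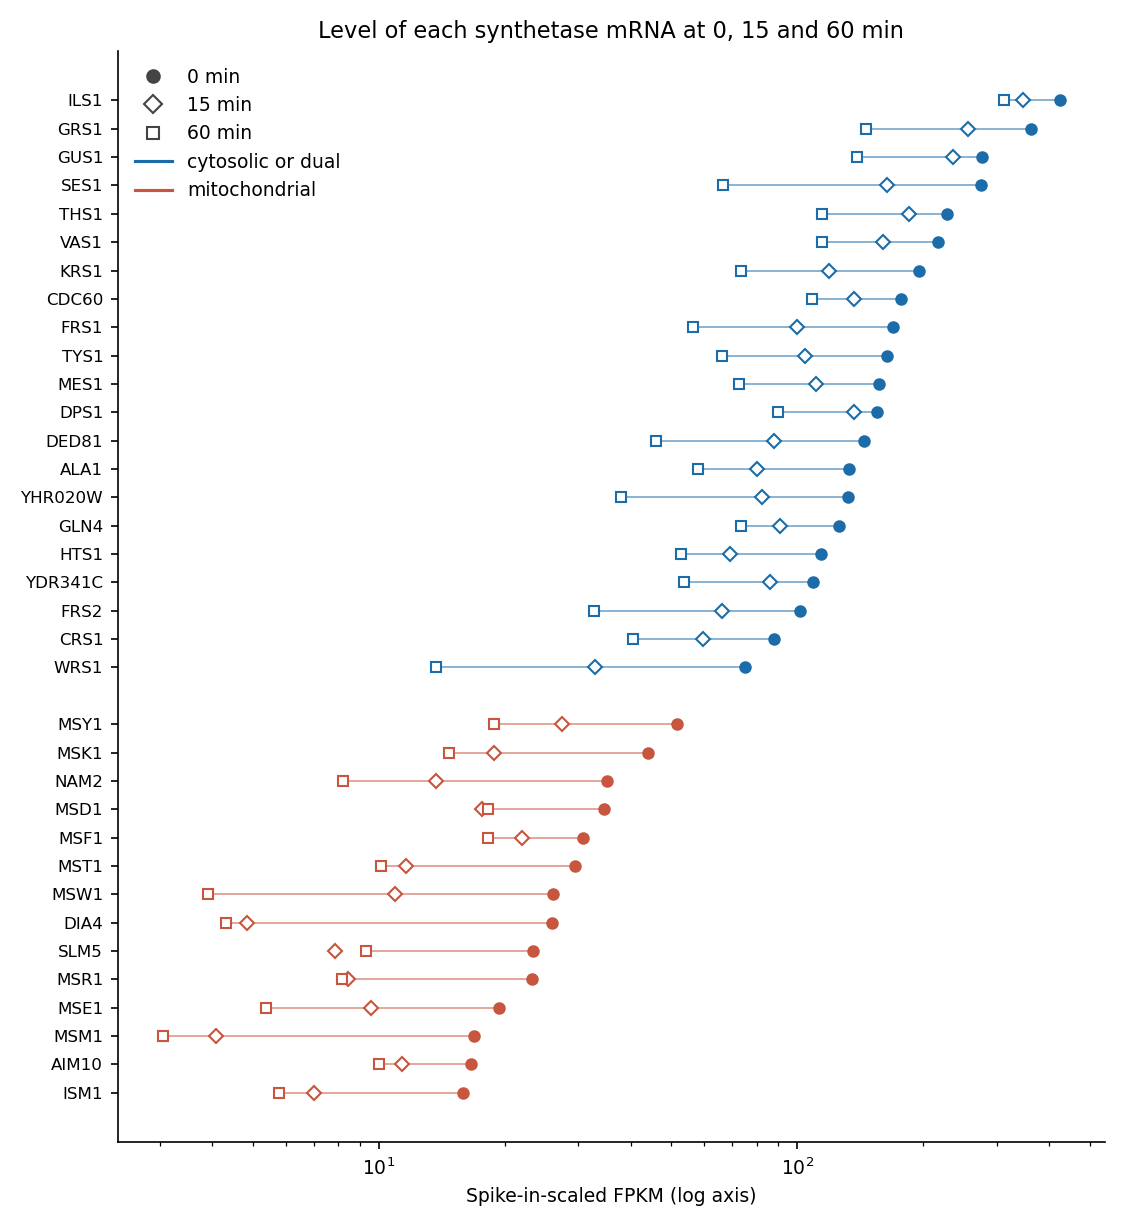
Spike-in-scaled FPKM of each synthetase mRNA on a log axis at 0 min (filled circles), 15 min (open diamonds) and 60 min (open squares), with 1 library per time. The cytosolic or dual mRNAs (blue) are above the mitochondrial mRNAs (red), each ordered by level at 0 min; the groups span 75.1 to 424 FPKM and 15.9 to 51.6 FPKM at 0 min.

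The groups separated within the first minutes after the shift and drew closer afterwards. Over the 9 times from 3 to 60 min, the median cytosolic or dual mRNA was in turn at 95.6%, 83.8%, 75.4%, 89.3%, 67.7%, 66.9%, 49.2%, 59.4% and 46.0% of its 0 min level. The median mitochondrial mRNA was at 85.2%, 62.2%, 54.5%, 57.7%, 42.4%, 47.7%, 39.7%, 39.96% and 34.8%. The median of all genes was at 82.3%, 66.9%, 56.9%, 66.4%, 49.6%, 50.3%, 39.9%, 45.9% and 35.9%. The cytosolic or dual median thus lay above that of all genes at every time after 0 min, while the mitochondrial median lay below it at every time but 3 min.

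Of the times after 0 min, 10 min parted the groups most by counts against the median of all genes and the lowest cytosolic or dual mRNA. Counted against the highest mitochondrial mRNA, 3 min did, with 12 of 21 cytosolic or dual mRNAs higher, against 8 at 10 min. From 8 to 10 min, a high library, the median rose from 75.4% to 89.3% (cytosolic or dual) and from 54.5% to 57.7% (mitochondrial). At 10 min 21 of 21 cytosolic or dual mRNAs and 3 of 14 mitochondrial mRNAs were above the median of all genes. Of the 14 mitochondrial mRNAs, 12 were lower than the lowest cytosolic or dual one, WRS1. WRS1, at 72.05%, was itself above the median of all genes, 66.4%, so most genes were also lower than it. At 15 min 20 of 21 and 5 of 14 were above that median, and 8 of the 14 were lower than the lowest cytosolic or dual one. At 60 min, 15 of 21 cytosolic or dual mRNAs and 6 of 14 mitochondrial mRNAs were above that median, and 3 of the 14 were lower than the lowest cytosolic or dual one. Members are not replicates of a condition, and the difference between the groups was given no test.

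**Figure D2:**
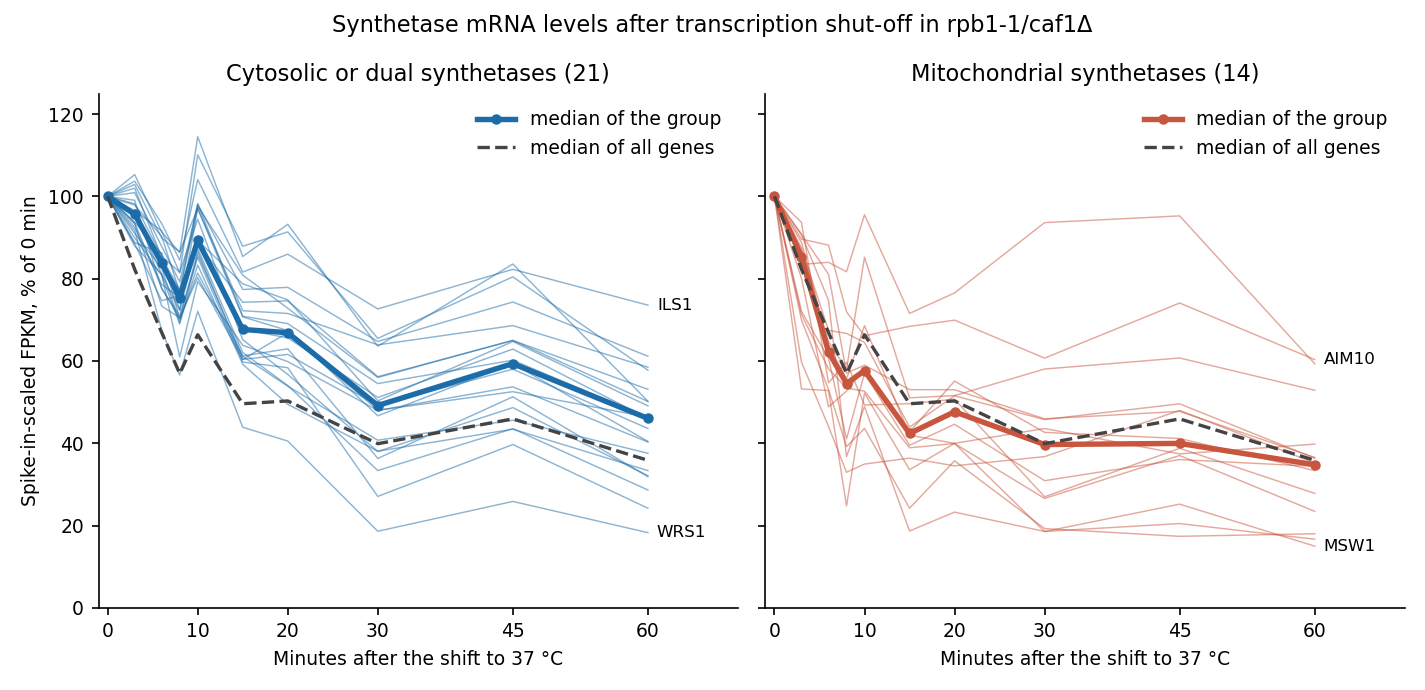
Spike-in-scaled FPKM as a percentage of 0 min against minutes after the shift to 37 °C for the 21 cytosolic or dual mRNAs (left) and the 14 mitochondrial mRNAs (right). Thin lines are single mRNAs, the thick line is the group median and the dashed line is the median of all 5991 genes; at 15 min the medians are 67.7% on the left, 42.4% on the right and 49.6% for all genes.

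Most of the separation fell before 15 min. From 15 to 60 min the order was the other way: the 60 min level was a median 62.3% of the 15 min level for cytosolic or dual mRNAs and 82.9% for mitochondrial mRNAs, against 75.8% for all genes. These ratios rest on the single 15 min library, the shallowest. The mitochondrial median was 42.4% there and 47.7% at 20 min, against 67.7% and 66.9% for the cytosolic or dual group, so a start at 20 min narrows the difference. Averaged over 8, 10 and 15 min and over 30, 45 and 60 min, the cytosolic or dual medians were 80.0% and 50.25%. The mitochondrial medians were 52.1% and 39.5%. None of the 21 cytosolic or dual mRNAs stood higher at 60 min than at 15 min, against MSD1 and SLM5 among the 14 mitochondrial mRNAs and 25.7% of all genes. Between the groups the level at 0 min moved with these values, and its part in them was not tested. Within the groups, Spearman's rho of FPKM at 0 min with the percentage at 15 min was 0.34 (cytosolic or dual) and 0.18 (mitochondrial). With the percentage at 60 min it was 0.30 and -0.011. Over the 2421 genes within the 0 min range of the mitochondrial group, the median was 42.9% at 15 min and 80.1% from 15 to 60 min, close to the mitochondrial medians. Over the 1369 genes within the range of the cytosolic or dual group, it was 57.0% at 15 min and 74.0% from 15 to 60 min, against 67.7% and 62.3% for the synthetases.

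Slopes over time were fitted with limma to log2(FPKM + 1) across all 10 libraries for the 6045 genes with a mean of at least 1 FPKM, and p-values were adjusted over these genes by the Benjamini-Hochberg method. With a threshold of 0.05, 20 of 21 cytosolic or dual mRNAs and 9 of 14 mitochondrial mRNAs fell, against 52.8% of all genes tested, and none of the 35 rose. The slope had a median of -0.17 per 10 min in the cytosolic or dual group and -0.18 per 10 min in the mitochondrial group, on the log2(FPKM + 1) scale, which understates the change of low mRNAs. The steepest slopes belonged to both tryptophanyl-tRNA synthetases: WRS1 (YOL097C) fell by 0.40 ± 0.064 per 10 min (SE, limma adjusted p = 0.000916) and MSW1 (YDR268W) fell by 0.40 ± 0.058 per 10 min (SE, limma adjusted p = 0.000748). ILS1 (YBL076C), for isoleucine, was the cytosolic mRNA without a call, with a slope of -0.074 ± 0.036 per 10 min (SE, limma adjusted p = 0.098). The mitochondrial mRNAs without a call were MSD1, MSF1, MSR1, SLM5 and AIM10, with slopes between -0.098 and -0.053 per 10 min. A missing call is not a missing loss. MSR1 and SLM5 ended at 35.2% and 39.8% of 0 min, lower than GLN4 at 58.5%, which was called. MSD1, MSF1 and AIM10 ended at 52.9%, 59.3% and 60.3%. In the fit over 0 to 20 min, MSD1 and MSR1 were called as falling. The lone library per time makes these p-values a measure of scatter around a line, and the shared swings of the libraries enter that scatter. With each library set to the same total yeast FPKM, which asks about shares of the RNA pool, 7 of 21 and 4 of 14 fell, beside 24.7% of 6090 genes. On the deposited values without spike-in scaling, 16 of 21 and 8 of 14 fell, beside 40.1% of 6070 genes, and GUS1, DPS1, GLN4, CDC60 and MST1 were without a call.

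Centring each library on its median gene removes the part of the swings that is equal in all genes. The swings differed in size between the groups, so some of them remain on the centred scale. On that scale ILS1 (0.12 ± 0.037 per 10 min, SE, limma adjusted p = 0.0257), AIM10 (0.11 ± 0.033, adjusted p = 0.018), MSD1 (0.093 ± 0.030, adjusted p = 0.028) and MSF1 (0.14 ± 0.048, adjusted p = 0.0399) declined more slowly than the median mRNA. SES1 (-0.15 ± 0.043), WRS1 (-0.21 ± 0.040), MSM1 (-0.13 ± 0.038), MSW1 (-0.20 ± 0.034) and DIA4 (-0.17 ± 0.062) declined faster (limma adjusted p between 0.00272 and 0.0446). These 4 slower and 5 faster mRNAs among 35 stand beside 23.5% slower and 17.8% faster over all genes, so the counts do not set the synthetases apart. Without the 3 min library 1 member was slower, without that of 6, 45 or 60 min 2 were, and without that of 3 or 45 min 3 were faster. AIM10, WRS1 and MSW1 kept their calls whichever time point was left out, whereas MSF1 and DIA4 each lost theirs in 7 of the 10 cases, MSD1 in 5, ILS1 and MSM1 in 2 each and SES1 in 1.

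Over 0 to 20 min the relative calls of ILS1, MSF1 and DIA4 were the same, and 5 cytosolic or dual mRNAs were slower that were without a call over 60 min. Fitted to those 7 libraries, 11 of 21 cytosolic or dual and 10 of 14 mitochondrial mRNAs fell, against 51.3% of all genes. Relative to the median mRNA, CDC60, DPS1, GUS1, ILS1, VAS1 and YDR341C of the cytosolic or dual group and MSF1 of the mitochondrial group were slower, 7 of 35 members beside 20.8% of all genes. DIA4 was the 1 faster member, beside 11.1% of all genes. Over all genes tested the relative slope had a median of 0.070 per 10 min, so 0 was not its midpoint. The share of all genes above 0 was not counted. The median was 0.23 per 10 min in the cytosolic or dual group and 0.013 per 10 min in the mitochondrial group. The relative slope was above 0 for 20 of 21 cytosolic or dual mRNAs, all but WRS1, and for 8 of 14 mitochondrial mRNAs. DPS1 (YLL018C), for aspartate, had the highest at 0.46 ± 0.090 per 10 min (SE, limma adjusted p = 0.00995), and DIA4 (YHR011W) the lowest at -0.65 ± 0.16 per 10 min (SE, limma adjusted p = 0.0237). Over the 5 libraries of 15 to 60 min, no gene passed in either direction, limma at an unadjusted p under 0.05 giving 907 falling and 76 rising genes.

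**Figure D3:**
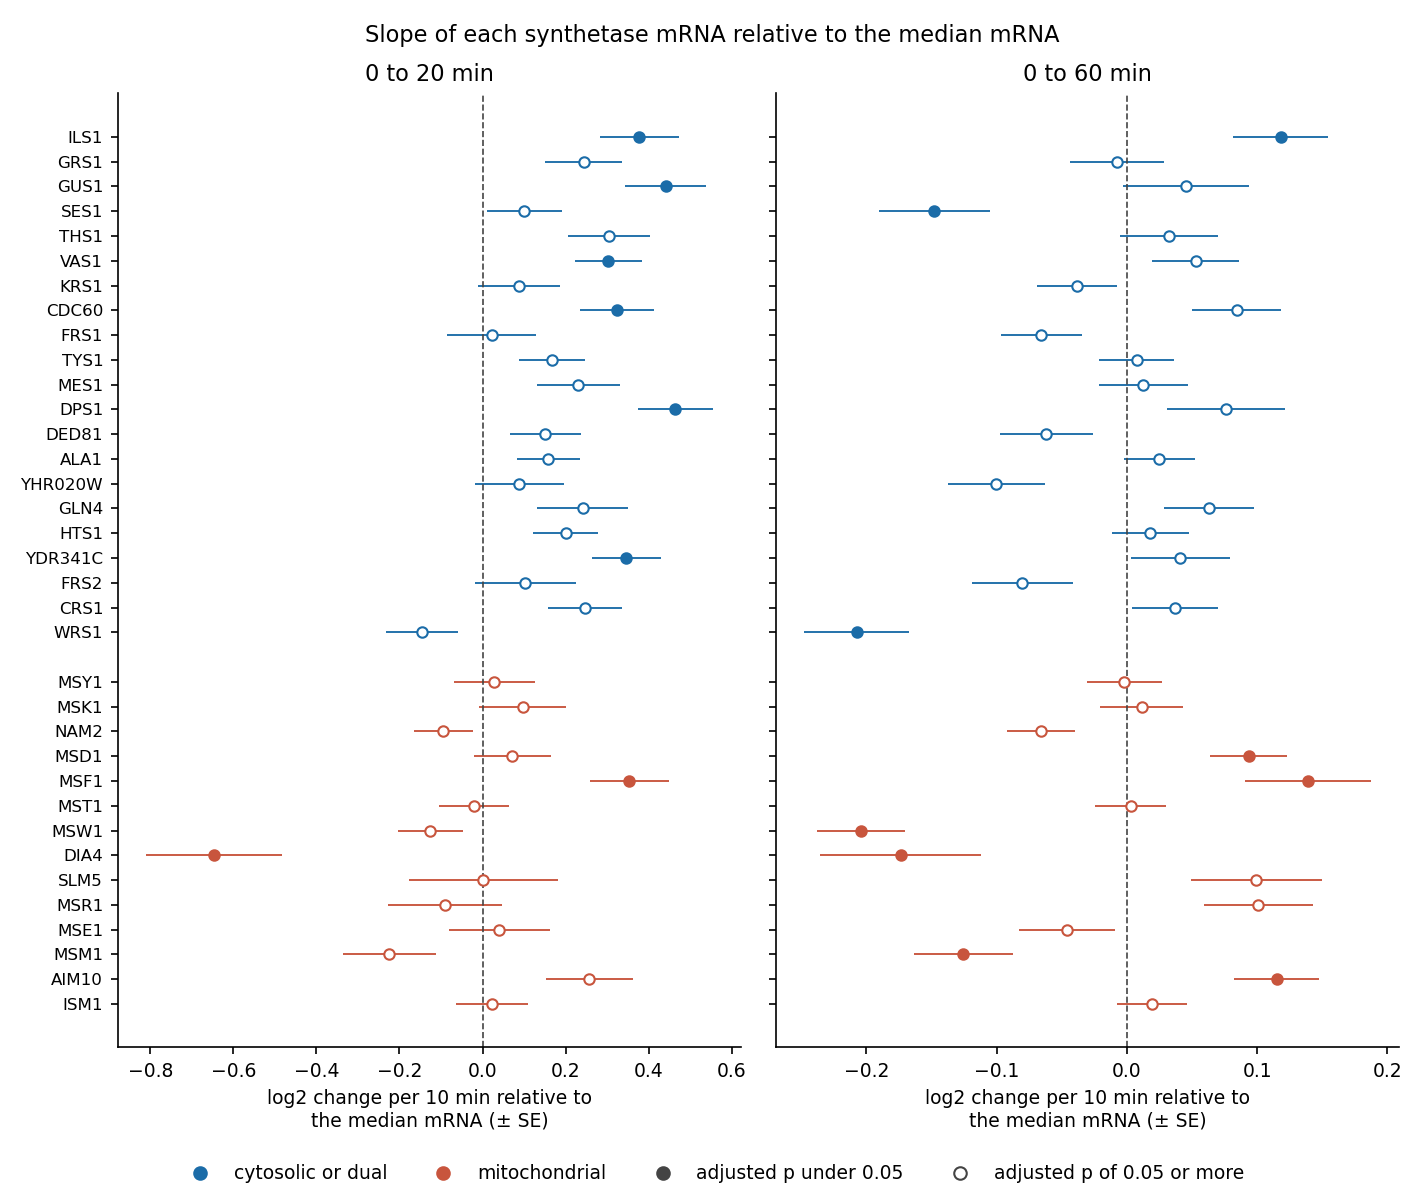
Slope of each synthetase mRNA relative to the median mRNA, as log2 change per 10 min with its SE, fitted over 0 to 20 min (left) and 0 to 60 min (right). Filled points have a limma adjusted p under 0.05, and cytosolic or dual mRNAs (blue) are above the mitochondrial ones (red). On the left 20 of 21 blue points and 8 of 14 red points lie above 0, where the median slope of all genes is 0.070.

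Setting both enzymes for 1 amino acid side by side removes the spike-in factor, since both levels come from the same library. There are 15 such pairs for 14 amino acids, the phenylalanine enzyme of the cytosol having its β chain from FRS1 and its α chain from FRS2 and that of mitochondria a single chain from MSF1. At 0 min the cytosolic mRNA was 2.88 times (WRS1 over MSW1) to 26.7 times (ILS1 over ISM1) the level of the mitochondrial one, with a median ratio of 5.50. At 15 min the ratio was above its 0 min value in 12 of 15 pairs, by a median factor of 1.72, and at 60 min in 11 of 15 pairs, by a median factor of 1.22. From 15 to 60 min the ratio was higher in 4 of 15 pairs, with a median factor of 0.713. The ratios have no test, since a pair has 1 value per time.

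**Figure D4:**
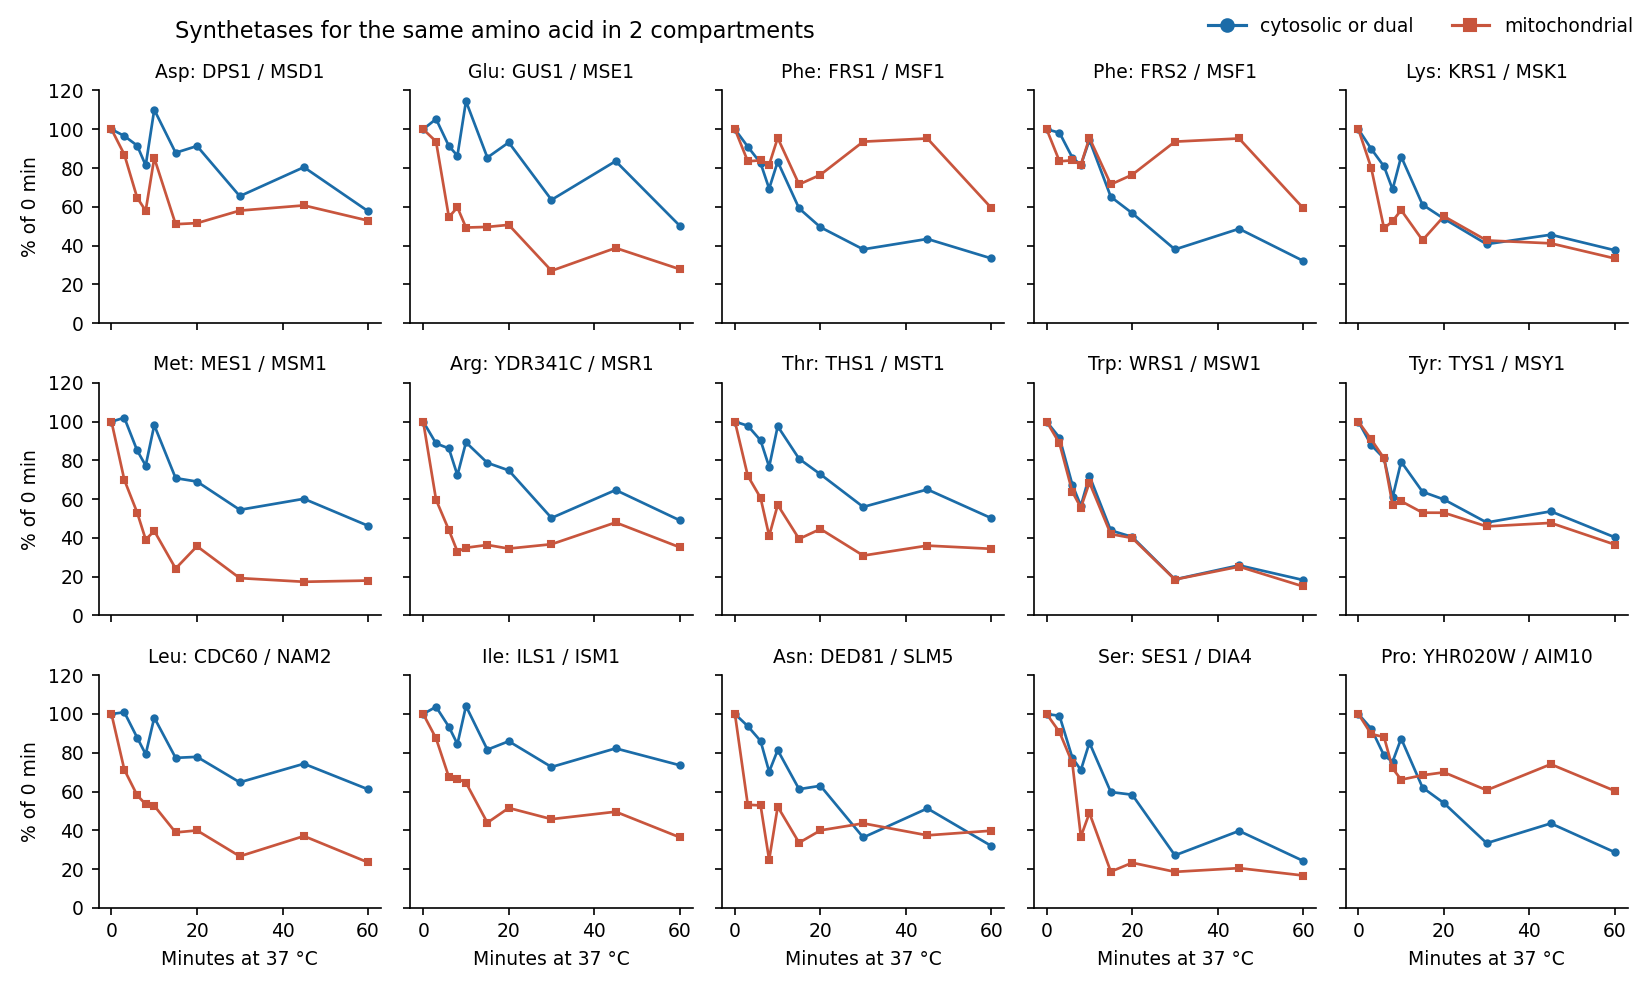
Spike-in-scaled FPKM as a percentage of 0 min against minutes at 37 °C for the 15 pairs of cytosolic or dual (blue circles) and mitochondrial (red squares) synthetases that charge the same amino acid. The curves part early in most pairs, coincide for tryptophan up to 45 min, and stand in the opposite order for phenylalanine and proline from 15 min.

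The serine pair parted most by 15 min. SES1 (YDR023W, chrIV:489508-490896, 1 exon), the cytosolic seryl-tRNA synthetase, was at 275, 272, 213, 195, 234, 164, 160, 74.5, 109 and 66.6 FPKM from 0 to 60 min. DIA4 (chrVIII:127780-129120, 1 exon), annotated as a putative mitochondrial seryl-tRNA synthetase, was at 25.9, 23.5, 19.4, 9.53, 12.7, 4.84, 6.03, 4.81, 5.31 and 4.32 FPKM. DIA4 was close to its lowest level by 15 min, when it stood at 18.7% of 0 min, while SES1 was still at 59.7% and continued to 24.2% by 60 min. The ratio of SES1 to DIA4 was thus 10.6, 33.9 and 15.4 at 0, 15 and 60 min, a factor of 3.20 over the first 15 min. DIA4 rested on an estimated 16.0 fragments at 15 min and 32.0 at 60 min.

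The methionine pair kept its distance to the end. MES1 (YGR264C), the cytosolic methionyl-tRNA synthetase, was at 156, 160, 133, 121, 154, 111, 108, 85.3, 94.2 and 72.4 FPKM. MSM1 (YGR171C), its mitochondrial counterpart, was at 16.9, 11.8, 8.98, 6.62, 7.38, 4.09, 6.04, 3.26, 2.94 and 3.04 FPKM. MSM1 was thus at 24.2% of its 0 min level at 15 min, with MES1 at 70.9%, and the ratio of the pair was 9.25, 27.1 and 23.8 at 0, 15 and 60 min. The leucine and isoleucine pairs behaved alike: the ratio of CDC60 to NAM2 was 5.04 at 0 min and 13.2 at 60 min, and that of ILS1 to ISM1 was 26.7 and 53.9. NAM2, which in yeast also takes part in splicing of mitochondrial introns, ended at 23.4% of 0 min and CDC60 at 61.1%.

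The tryptophan pair did not part at all until the last sample. WRS1 (chrXV:136527-137825, 1 exon) was at 75.1, 68.9, 50.7, 42.5, 54.1, 33.0, 30.5, 13.98, 19.4 and 13.7 FPKM. MSW1 (chrIV:1004004-1005143, 1 exon) was at 26.1, 23.2, 16.7, 14.5, 17.9, 10.96, 10.4, 4.84, 6.58 and 3.91 FPKM. Their ratio stayed between 2.88 and 3.04 from 0 to 45 min and was 3.51 at 60 min, where MSW1 rested on an estimated 24.0 fragments with a counting error of 20.4%. WRS1 ended at 18.3% of 0 min, the lowest of the cytosolic or dual group, and MSW1 at 15.0%, the lowest of all 35. They are separate genes on different chromosomes, and neither overlaps another annotated gene. The tyrosine pair also stayed close, with a ratio of TYS1 to MSY1 between 3.07 and 4.27 throughout.

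In the phenylalanine and proline pairs the mitochondrial mRNA kept more of its 0 min level than the cytosolic one from 15 min on, and MSF1 kept more than FRS1 from 6 min on. MSF1 (YPR047W, chrXVI:657529-658938, 1 exon) was at 30.8, 25.7, 25.8, 25.1, 29.4, 22.0, 23.5, 28.8, 29.3 and 18.2 FPKM, so that it stood at 95.3% of its 0 min level at 45 min. FRS1 (YLR060W) was at 43.4% and FRS2 (YFL022C) at 48.7% at that time. The chains of the cytosolic enzyme, which work in equal numbers, were at 169 FPKM (FRS1) and 102 FPKM (FRS2) at 0 min and at 33.4% and 32.1% of those levels at 60 min, against 59.3% for MSF1. AIM10 (YER087W, chrV:330576-332306, 1 exon), annotated as a putative mitochondrial prolyl-tRNA synthetase, was at 16.6 FPKM before the shift and between 10.0 and 14.9 FPKM in the 9 later libraries, and ended at 60.3%, the highest of the mitochondrial group. YHR020W, the cytosolic prolyl-tRNA synthetase, ended at 28.6%, and the ratio of YHR020W to AIM10 was 7.97 at 0 min and 3.78 at 60 min. For asparagine the order differed between times, with a ratio of DED81 to SLM5 of 6.16, 11.2 and 4.93 at 0, 15 and 60 min.

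In the remaining pairs the ratio was higher at 15 min than at 0 min, and in all but the glutamate pair it was lower at 60 min than at 15 min. The ratio of YDR341C to MSR1, for arginine, was 4.70, 10.2 and 6.56 at 0, 15 and 60 min, and that of THS1 to MST1, for threonine, was 7.76, 15.9 and 11.3. MSR1 (YHR091C) reached its lowest level, 33.0% of 0 min, by 8 min and was at 35.2% at 60 min. For aspartate the ratio of DPS1 to MSD1 was 4.50, 7.74 and 4.91 at 0, 15 and 60 min, for glutamate that of GUS1 to MSE1 was 14.3, 24.6 and 25.8, and for lysine that of KRS1 to MSK1 was 4.43, 6.32 and 4.99, with 4.33 at 20 min and 4.23 at 30 min.

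Among the cytosolic or dual mRNAs, ILS1 had the highest level both at 0 min and at 60 min. ILS1 (chrII:81043-84261, 1 exon) was at 424, 440, 396, 358, 441, 346, 365, 308, 349 and 312 FPKM and ended at 73.6% of 0 min, the highest percentage of the 35. It is the 1 cytosolic or dual mRNA whose lowest value was not at 60 min but at 30 min. CDC60, DPS1, GLN4, GUS1, ILS1 and MES1 stood above their 0 min level in at least 1 later library, all in those of 3 or 10 min, and no mitochondrial mRNA did. The share of all genes that did so was not counted. Their upper quartile was 94.6% of 0 min at 3 min and 87.1% at 10 min. The 10 min library was among those that were high for most genes at once. GLN4 (YOR168W), for glutamine, whose gene has no mitochondrial partner, ended at 58.5%. The dual mRNAs GRS1, ALA1, HTS1, CRS1 and VAS1, which supply both compartments, ended at 40.4%, 43.6%, 46.4%, 46.0% and 53.1%, inside the range of the strictly cytosolic mRNAs, and their 15 min levels of 60.4% to 74.3% were likewise inside it. CRS1 has a match to the Puf3 core after its stop codon, and the other 4 have none.

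Half-lives came from least-squares fits of an exponential to the levels relative to 0 min, with the curve held at 1 at the start. As in the methods of the study, fits with an average absolute residual above 0.14 or a half-life beyond the 60 min course were left out. Of the cytosolic or dual mRNAs 16 of 21 passed, with a median of 34.0 min, against 9 of 14 mitochondrial mRNAs with a median of 14.1 min and 2801 of 5269 named protein-coding genes with a median of 15.8 min. The filters removed different kinds of mRNA from each group: CDC60, DPS1, GLN4, GUS1 and ILS1 were beyond 60 min, as was MSF1, whereas MSD1, MSK1, MSR1 and SLM5 had residuals above the limit. Among the mRNAs that passed, WRS1 had the shortest cytosolic half-life, 14.95 ± 1.73 min (SE of the fit), and THS1 the longest, 53.5 ± 7.04 min. MSM1 had the shortest mitochondrial one, 8.31 ± 1.27 min, DIA4 followed with 9.19 ± 1.47 min, and AIM10 had the longest, 54.7 ± 12.8 min. The distance between the group medians differed between decay models, which also let different numbers of mRNAs pass. With the starting level left free the medians were 39.9 min over 14 cytosolic or dual mRNAs and 28.7 min over 11 mitochondrial mRNAs. With a straight line through the natural log they were 41.0 min over 12 and 43.7 min over 8, in the opposite order. On the deposited values without spike-in scaling, 8 cytosolic or dual and 7 mitochondrial mRNAs passed, with medians of 44.3 min and 19.7 min.

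Other genes of tRNA charging were followed in the same way. ARC1, which holds the cytosolic enzymes for methionine and glutamate in a complex, was at 281 FPKM at 0 min and 44.0% of it at 60 min and fell (-0.19 ± 0.041 per 10 min, SE, limma adjusted p = 0.00331), as did GUS1 and MES1, which ended at 50.2% and 46.3%. The 3 subunits of the mitochondrial amidotransferase that completes glutaminyl-tRNA differed: PET112 and HER2 fell and ended at 27.9% and 26.9% of 0 min, while GTF1 ended at 65.3% without a call (limma adjusted p = 0.457). GRS2, a paralog of GRS1 with little activity, was at 27.8 FPKM at 0 min, against 362 FPKM for GRS1, and ended at 54.9% without a call (limma adjusted p = 0.0937); the pair could share reads. GCN2, a kinase that senses uncharged tRNA, ended at 63.4% without a call, and GCN4, the transcription factor that its activity induces, fell and ended at 28.6%. DTD1, which clears D-amino acids from tRNA, fell and ended at 7.70%, and FMT1, which formylates the mitochondrial initiator tRNA, was at 4.12 FPKM at 0 min without a call. Of these 9 genes, 5 fell and none rose, beside 52.8% falling over all genes.

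A measure of codon use, the OPT codon share, separated the groups completely. It differs from the published definition of codon optimality by which the study binned mRNAs. The OPT codon share is the number of codons of the study's OPT reporter as a percentage of those of its OPT and NON-OPT reporters, 9 codons of each kind, in a coding sequence of R64. It ran from 67.5% (GLN4) to 82.9% (GUS1) in the cytosolic or dual genes, with a median of 77.5%, and from 43.4% (MSR1) to 57.7% (MST1) in the mitochondrial genes, with a median of 49.4%, against a median of 52.7% over 5420 named protein-coding genes. Among the named genes these shares stood at percentiles 84.5 to 94.1 in the cytosolic or dual group and 9.87 to 66.7 in the mitochondrial group. Within the groups the share ordered the mRNAs weakly. Spearman's rho between the share and the level at 15 min was -0.048 over the 21 cytosolic or dual genes and 0.21 over the 14 mitochondrial genes, a description across genes of the same libraries. With the level at 60 min it was -0.27 and 0.20. WRS1, at 71.7% OPT codons, was at 43.9% of its 0 min level at 15 min, and MSF1 and AIM10, at 47.9% and 47.2% OPT codons, were at 71.5% and 68.4%.

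**Figure D5:**
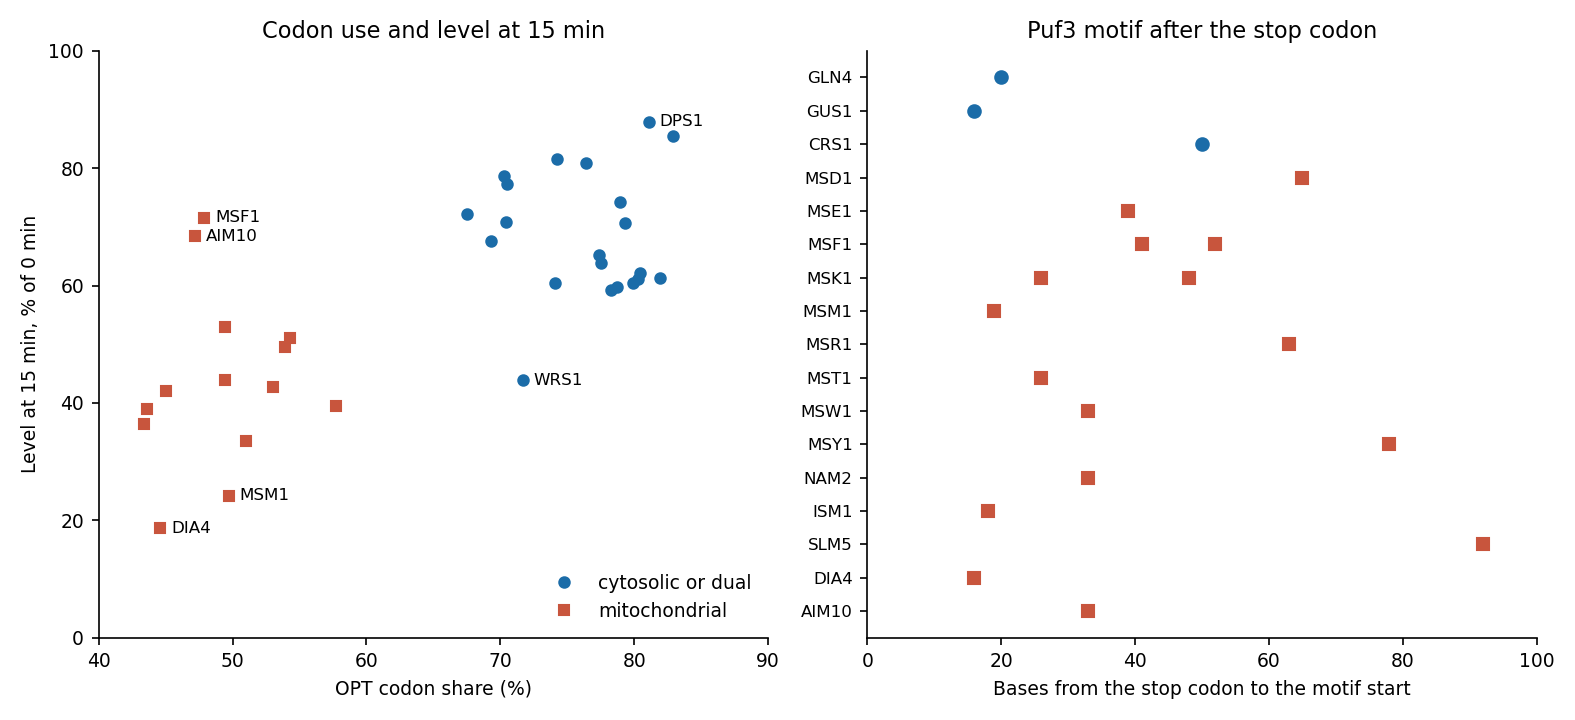
Left, OPT codon share (%) of each synthetase gene against its level at 15 min (% of 0 min), with cytosolic or dual genes as blue circles (67.5% to 82.9% OPT codons) and mitochondrial genes as red squares (43.4% to 57.7%). Right, distance in bases from the stop codon to the start of each match to the Puf3 core within 100 bases, for the 3 cytosolic or dual and 14 mitochondrial genes that have one.

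In these libraries, all without CAF1, genes with the Puf3 core had levels near those of genes without it. Cells with CAF1 were not compared, and matches with a C 2 bases before the core were not taken apart. The part of Puf3 in these levels was not tested. Over the nuclear protein-coding genes with a mean of at least 1 FPKM and a level above 0 at 0 min, the median level at 15 min was 48.4% of 0 min for the 594 with the motif and 49.9% for the 4926 without it, and at 60 min it was 34.3% and 36.4%. Inside the mitochondrial group, where every gene has the motif, the level at 15 min ran from 18.7% (DIA4) to 71.5% (MSF1), and the 2 genes with a pair of matches, MSF1 and MSK1, were at 71.5% and 42.8%. The 2 genes whose only match reads TGTATATA, AIM10 and ISM1, were at 68.4% and 43.9%. GUS1, GLN4 and CRS1, with a match in the cytosolic or dual group, were at 85.4%, 72.2% and 67.7%, against a group median of 67.7%. Upstream, TGACTCA, the site of Gcn4, occurred on either strand in the 250 bases before the start codon of YDR341C and YHR020W and of no mitochondrial gene, against 2.17% of all genes. Within 500 bases DED81 also had one, and 4.02% of all genes. DED81 and YHR020W are neighbours that are read in opposite directions on chromosome VIII, so they share the bases between them.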

How the data were processed

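RNA-seq covered 10 libraries of rpb1-1/caf1Δ cells, 1 per time point. The labels name the strain in 2 ways and mention a biological duplicate, which was not used here. The authors deposited FPKM values, which Cufflinks 1.3.0 gave after Bowtie 0.12.7 had placed the reads on SacCer2, per the processing notes, and these carry no spike-in scaling. From there, each value was divided by its library's summed ERCC FPKM relative to 0 min (73 of 92 spike-ins detected, factors from 1 to 1.423). Depths come from low FPKM values, of which 95.0% to 96.8% lay within 0.15 of a whole fragment. Estimated counting errors cover counting only.

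Genes were matched by systematic name to the RefSeq annotation of R64, and no SacCer2 coordinate was used. Slopes on the log2(FPKM + 1) scale, with time as a continuous term, were fitted in R 4.3.3 by limma 3.58.1. Half-lives were fitted in numpy 2.4.6 (Python 3.11.15; pandas 2.3.3). Both were tested on simulated data with independent noise, which do not cover the swings that genes of a library share. Any of the 35 members could be named, beside listed genes of tRNA charging. Members, lists and tests were chosen with earlier results of these data known. Alternatives were other pseudocounts, filters, scalings, time ranges, decay models and leaving out each time point. Fits over 15 to 60 min and with a variance trend were chosen after seeing the data.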

Additional observations from a re-analysis of the deposited data

How the results depend on the processing

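Of the count, level and half-life summaries of both groups under each alternative, 94 values stayed within 1.5 times the reported one and 22 did not. With the same total yeast FPKM in each library, 7 cytosolic or dual and 4 mitochondrial mRNAs fell (24.7% of all genes), the median levels at 60 min were 87.5% and 66.1%, and the mitochondrial median half-life was 23.6 min over 5 mRNAs. On that scale, which measures shares of the RNA pool, the slopes of CDC60 (0.031), DPS1 (0.023), GLN4 (0.0093) and ILS1 (0.066 per 10 min) turned positive, ILS1 with a limma adjusted p of 0.0397, as did those of MSD1 (0.036), MSF1 (0.082), MSR1 (0.038), SLM5 (0.037) and AIM10 (0.053), which had no call on either scale. Over 0 to 20 min, 11 cytosolic or dual mRNAs fell, 7 members were slower and 1 was faster than the median mRNA, and SES1 turned to a relative slope of 0.10. Over 15 to 60 min, with 5 libraries, 0 members were called in each of the 4 counts and DIA4 turned to 0.031. The faster count was 8 with a mean FPKM of at least 10, where MSM1 is below the filter, and 8 when centred on such genes. The mitochondrial median half-life was 28.7 min with a free start and 43.7 min with a straight line through the natural log. On the deposited values without spike-in scaling, 16 and 8 fell, GUS1, DPS1, GLN4, CDC60 and MST1 losing their calls, and 8 cytosolic or dual half-lives passed. Leaving out 1 time point gave 15 to 20 falling cytosolic or dual mRNAs, 8 to 9 falling mitochondrial mRNAs (CDC60 and DPS1 lost their call without 3 min, and YDR341C, GUS1, DPS1, CRS1, CDC60 and MSK1 without 60 min), 1 to 4 slower and 3 to 7 faster members, and median half-lives of 29.8 to 36.1 min and 13.8 to 18.3 min. The cause of these shifts was not tested.

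Depth limits the mitochondrial mRNAs, down to an estimated 16.0 fragments, more than the cytosolic or dual ones. No paired analysis was possible because a single library stands for every time point and the labels give them no replicate numbers. No flags for outlying samples could be computed, since every group holds 1 sample.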
